A study of Mus musculus with 6 samples.

Results

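Vascular smooth muscle cells and pericytes are the mural cells of the heart's vessels. The 10 genes described here mark these cells and were taken from the table by gene name: *Myh11*, *Acta2*, *Tagln*, *Cnn1*, *Smtn* and *Myocd* for contractile smooth muscle, and *Pdgfrb*, *Rgs5*, *Cspg4* and *Mcam* for pericytes and mural cells in general. All 10 were found among the 56748 genes of the count table. The data are RNA-seq libraries of whole heart tissue from 3 WT mice and 3 littermates that overexpress Pontin in cardiomyocytes (Pontin cTG), each heart being its own library. All mice were males on a C57Bl/6 background, 10 weeks old at the start, and all were infused with angiotensin II (Ang-II) from a mini-osmotic pump. The infusion lasted 14 days at a daily dose of 1.5 mg/kg BW in both groups, so that no untreated heart enters the comparison. The transgene is human Pontin cDNA with a flag tag, driven by αMHC, a promoter of cardiomyocytes and not of mural cells. The number of founder lines is not given in the sources used here. The 3 WT libraries held 13194038, 12436822 and 12772244 counts. The 3 Pontin cTG libraries held 14584102, 15279201 and 16888124.

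Arteries and arterioles are wrapped by smooth muscle cells, whose contractile state rests on a set of actin, myosin and actin-binding proteins. These genes are switched on by serum response factor (SRF), which binds DNA elements called CArG boxes, together with its coactivator myocardin, the product of *Myocd*. Capillaries carry pericytes instead, which are recruited by PDGF-B from endothelial cells through the receptor PDGFRβ and contain little of the contractile apparatus. Ang-II acts on smooth muscle through its type 1 receptor, constricting vessels and promoting growth of the vessel wall.

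Matches to the CArG box near the start of *Acta2* are shown because SRF and myocardin act through boxes of this kind. Of the 10 genes, 6 (*Acta2*, *Smtn*, *Cnn1*, *Rgs5*, *Cspg4* and *Mcam*) were matched to a RefSeq promoter window (GRCm38.p6, 250 bases before to 50 after the start). The search was for the CArG box, a palindrome and so the same on both strands, in its strict form and in a form with at most 1 G or C among its 6 central bases. The strict form was found in 0 of the 6 windows and in 1.63% of all 32851 windows. The looser form was found in the *Acta2* window only, at 2 places, and in 9.98% of all windows. Both places are printed 5′ to 3′ on the minus strand of chromosome 19 with the box in capitals.
Acta2 box farther from the start, chr19:34255438-34255467, box 84 to 75 bases before the start: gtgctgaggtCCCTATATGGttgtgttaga
Acta2 box nearer to the start, chr19:34255388-34255417, box 34 to 25 bases before the start: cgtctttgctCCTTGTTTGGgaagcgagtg
Distances are from the RefSeq start, which lies inside the longer span of *Acta2* in GENCODE M21 given further on, so that by the latter both boxes are within the gene. Each box has 1 G or C in its centre. A match describes the letters of the window, and no binding was measured here.

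In the adult heart the pericyte gene *Rgs5* and smooth muscle α-actin stood far above the other 8 genes. Levels are compared between genes in CPM per kilobase of gene length, with library sizes scaled by TMM. On this scale *Rgs5*, a regulator of G protein signalling, had 154.6 ± 10.5 (SD, n = 6 libraries) and *Acta2* had 80.8 ± 10.2. *Smtn* (smoothelin), *Mcam* (an adhesion molecule that endothelial cells also carry) and *Pdgfrb* followed with 28.0 ± 5.68, 18.4 ± 3.25 and 13.2 ± 1.54. Each of these 5 genes was above the next in the order in 6 of 6 libraries.
*Myocd* with 9.02 ± 2.97 and *Myh11* (smooth muscle myosin heavy chain) with 6.78 ± 2.15 did not differ beyond their spread. *Myocd* was the higher in 5 libraries and *Myh11* in Pontin cTG replicate 2. *Cspg4*, which encodes the pericyte proteoglycan NG2, had 2.07 ± 0.56 and *Cnn1* (calponin) 1.43 ± 0.57, with *Cspg4* the higher in 5 of 6 libraries. *Tagln* (transgelin), an actin-binding protein abundant in smooth muscle, was listed last with 0.33 ± 0.13.

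**Figure D1:**
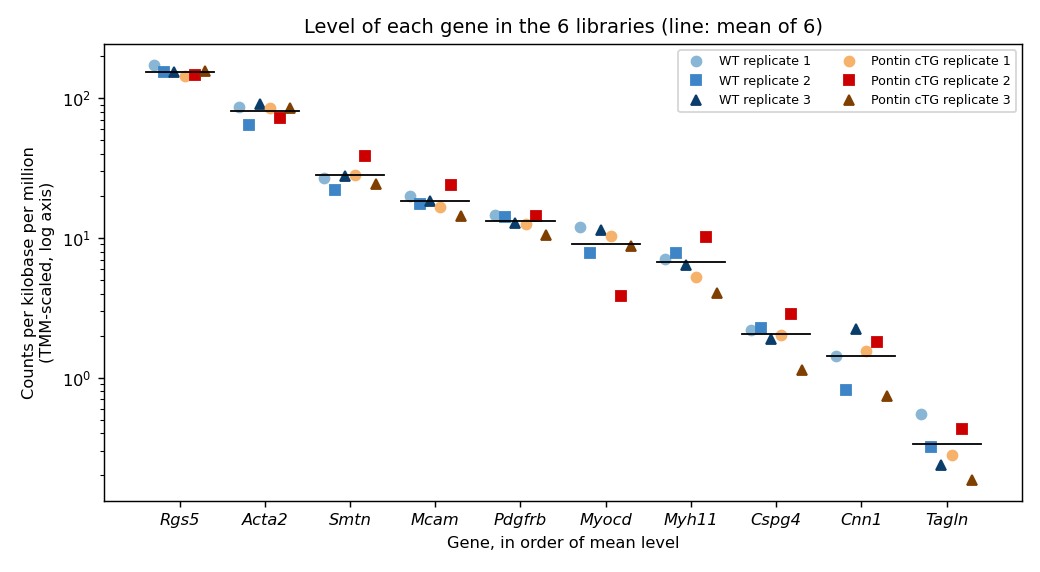
Level of the 10 mural cell genes in CPM per kilobase (log axis), in order of mean level, with a point for each library and a line at the mean of the 6. *Rgs5* lies near 154.6 and *Tagln* near 0.33, and *Myocd* is the gene with a single library, Pontin cTG replicate 2, far under the others.

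The exons of *Tagln* overlap other genes. In GENCODE M21 (GRCm38) *Tagln* (ENSMUSG00000032085, minus strand, chr9:45929619-45936058) has 1988 exonic bases, the same length as in the deposited table. Of these, 1349 (67.9%) also lie in exons of genes on the other strand, most of them in the noncoding gene *Gm48529* and the rest in *Pcsk7*. Reads counted for *Tagln* numbered 14, 8 and 6 in WT and 8, 14 and 6 in Pontin cTG hearts, and those for *Gm48529* were 4, 3 and 10 in WT and 3, 10 and 9 in Pontin cTG. How reads on shared bases were assigned is not given in the sources used here, and the part of this overlap in the low value was not tested. The values of *Tagln* are therefore uncertain. Over the 639 bases that no other gene shares, the same reads would give a mean level of 1.04 CPM per kilobase.
Among the other genes, *Smtn* shared 16.3% of its exonic bases, *Mcam* 0.507% and the remaining 7 genes 0%. For *Smtn* the genes on the shared bases were *Gm11946*, with at most 7 counts in a library, and *Gm11947*, with 0 in every library. *Acta2* belongs to a family of near-identical actins, but 0 of its 2096 stretches of 100 bases occurred in a transcript of another actin gene, and 7 of 2146 stretches of 50 bases did, all in *Actg1*.

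Pontin cTG replicate 2 stood apart from the other libraries. On the first principal component, which held 48.6% of the variance, it scored 50.9 and the other libraries between -23.1 and 16.2. Of 13888 genes tested, 4198 (30.2%) were highest of all libraries in this heart and 4259 (30.7%) lowest. The methods mention an excluded outlier without naming its experiment or library. The group size stated for this comparison matches the deposited libraries, all of which were used here. Mural cell genes are given with and without Pontin cTG replicate 2 where it matters.

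None of the mural cell genes passed the test between Pontin cTG and WT hearts. *Tagln* did not pass the filter on low counts, and of the other 9 genes 0 had an adjusted p under 0.05 in the edgeR quasi-likelihood fit (Benjamini-Hochberg over all 13888 genes tested), which called 0% of all genes. DESeq2 called 1 gene of the whole table, which was not a mural cell gene, and 217 at an unadjusted p under 0.05. An unadjusted p under 0.05 was found for 0 of the 9 genes and for 285 genes (2.05% of all tested, 1.02% of all tested being higher in Pontin cTG) in edgeR, and DESeq2 called 0 of the 10 genes, with 0 at an unadjusted p under 0.05. The groups overlapped in each of the 10 genes, against 8.33% of all genes tested whose groups did not. *Acta2* and *Smtn*, 2 of the 9 genes, had log2 fold changes above 0 (50.2% of all genes tested did) and the other 7 below it, with a median of -0.11 over the 9 genes and 0.0013 over all genes tested. The 4 pericyte genes had a median of -0.095 and the 5 contractile genes tested -0.12. Both turned with the omission of Pontin cTG replicate 3, to 0.048 and 0.13. The contractile median was also above 0 (0.12) when WT replicate 3 was omitted. Without Pontin cTG replicate 2 the pericyte median was -0.26. For a single gene the exact permutation test, with 3 mice in each group, has 0.1 as its smallest possible p, and the 10 genes gave p-values from 0.3 to 1 in it (two-sided). In whole heart tissue, a difference in the number of mural cells and one in RNA per cell could not be told apart.

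*Myh11* (ENSMUSG00000018830, chr16:14194535-14291372) is a widely used marker of differentiated smooth muscle. Normalised counts, scaled to a common library size, were 751, 833.5 and 681 in WT hearts (in the order of their replicate numbers, as in all that follows) and 558.5, 1096 and 434 in Pontin cTG hearts. Pontin cTG replicate 2 was the highest of all libraries, at 1.68 times the mean of the other 5 (12.4% of all genes tested were at least 1.5 times this mean), while the other Pontin cTG hearts lay under every WT heart. The log2 fold change was -0.12 (SE, the standard error, 0.30, edgeR adjusted p = 0.999). Without Pontin cTG replicate 2 it was -0.61 (SE 0.14), with an edgeR adjusted p = 0.889 (0.00129 unadjusted). Leaving out Pontin cTG replicate 3 instead gave 0.13. In the fit without Pontin cTG replicate 2, the library where *Myh11* was highest, 686 of 13978 genes had an unadjusted edgeR p under 0.05. Of the mural cell genes tested in that fit, 1 had. The adjusted p of *Myh11* lay between 0.844 and 0.9998 in all alternatives.

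*Acta2* (ENSMUSG00000035783, chr19:34241090-34255590) is made by smooth muscle, by some pericytes and by fibroblasts that turn into myofibroblasts. It had 2663, 1978 and 2808 normalised counts in WT and 2647, 2249 and 2649 in Pontin cTG replicates 1 to 3. Both replicates 2 were the low libraries of their groups, and the groups overlapped. Its log2 fold change of 0.018 (SE 0.17, edgeR adjusted p = 0.999) was within the spread between replicates. The heart in which *Myh11* was highest was thus among the lowest for *Acta2*. Per kilobase, *Acta2* was 12.3, 8.21 and 14.3 times *Myh11* in WT hearts and 16.4, 7.10 and 21.1 times in Pontin cTG hearts, so that the contractile genes did not vary by a common factor.

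*Smtn* (ENSMUSG00000020439, chr11:3517523-3540612) encodes a cytoskeletal protein of contractile smooth muscle. It had 1663, 1369.7 and 1723 normalised counts in WT and 1737, 2382 and 1498 in Pontin cTG hearts. The highest library was again Pontin cTG replicate 2. For *Smtn* the log2 fold change of 0.24 (SE 0.19, edgeR adjusted p = 0.999) was 0.029 without this heart. *Cnn1* (ENSMUSG00000001349, chr9:22099216-22109630), which restrains actomyosin, had 55.1, 31.4 and 86.1 normalised counts in WT and 59.6, 69.4 and 28.6 in Pontin cTG hearts. Its libraries spread about as widely within each group as between them, and its log2 fold change was -0.13 (SE 0.42, edgeR adjusted p = 0.999). Its direction turned with the library left out, being -0.39 or -0.43 when replicate 2 of Pontin cTG or of WT was omitted and 0.165 or 0.29 when replicate 3 of Pontin cTG or of WT was. The gene had 28 to 81 reads per library. When no filter on low counts was used, *Tagln* had a log2 fold change of -0.33 (SE 0.61, edgeR adjusted p = 0.986). In fits without a single library where *Tagln* passed the filter, it ran from -0.53 without WT replicate 3 to -0.059 without Pontin cTG replicate 3.

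*Myocd* (ENSMUSG00000020542, chr11:65176561-65269989), the coactivator, is also made by cardiomyocytes, so that in heart tissue it is not a measure of smooth muscle. It had 1089, 707 and 1024 normalised counts in WT and 936, 350 and 793.5 in Pontin cTG hearts. Here Pontin cTG replicate 2 was the lowest library, at 0.385 times the mean of the other 5 (11.8% of all genes tested were at least 1.5 times under it), and WT replicate 2 was the next lowest. The log2 fold change of -0.44 (SE 0.32, edgeR adjusted p = 0.999) was the largest of the 9 genes in size, and became -0.12 when Pontin cTG replicate 2 was omitted and -0.71 when replicate 1 was. In the 2 libraries where *Myocd* was lowest, *Myh11* was highest. Per kilobase *Myh11* was 2.65 times *Myocd* in Pontin cTG replicate 2, 0.997 times in WT replicate 2 and between 0.462 and 0.583 times in the other 4 hearts.

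**Figure D2:**
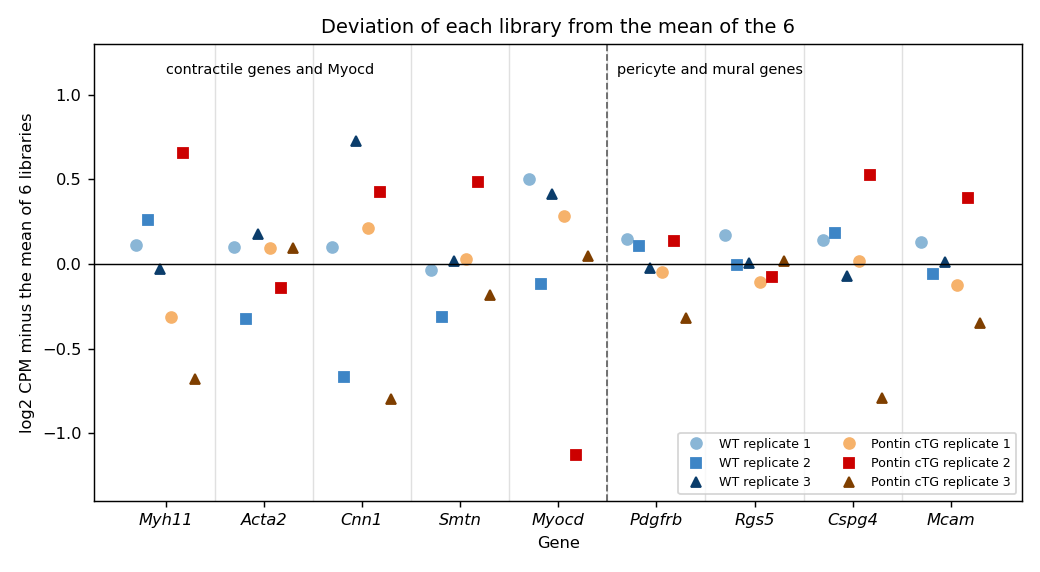
Deviation of each library from the mean of the 6, in log2 CPM, for the 9 mural cell genes tested. Pontin cTG replicate 2 is highest for *Myh11*, *Smtn*, *Cspg4* and *Mcam* and lowest for *Myocd* at -1.13, Pontin cTG replicate 3 is lowest for *Myh11*, *Cnn1*, *Pdgfrb*, *Cspg4* and *Mcam*, and *Rgs5* varies little.

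Among the pericyte genes, *Rgs5* and *Pdgfrb* varied less between hearts than *Cspg4* and *Mcam*. *Rgs5* (ENSMUSG00000026678, chr1:169655501-169695813) had 11107, 9848 and 9914 normalised counts in WT and 9183, 9359 and 9997 in Pontin cTG hearts. WT replicate 1 was the high library and the groups overlapped in the others. The log2 fold change was -0.11 (SE 0.13, edgeR adjusted p = 0.999), and it was between -0.17 and -0.051 under every alternative. *Pdgfrb* (ENSMUSG00000024620, chr18:61045150-61085061), the receptor through which pericytes are recruited, had 1123, 1090.3 and 995 in WT and 978, 1112 and 810 in Pontin cTG hearts. Pontin cTG replicate 3 was the low library. The log2 fold change was -0.15 (SE 0.15, edgeR adjusted p = 0.999). It was -0.26 when Pontin cTG replicate 2 was left out and -0.033 when replicate 3 was.
*Cspg4* (ENSMUSG00000032911, chr9:56865033-56899870) had 370, 380 and 319 normalised counts in WT and 339, 482 and 192 in Pontin cTG hearts. *Mcam* (ENSMUSG00000032135, chr9:44134469-44142727) had 939, 823 and 867.5 in WT and 789, 1128 and 676 in Pontin cTG hearts. In both genes the 3 WT hearts lay close together, Pontin cTG replicate 2 was the highest library and Pontin cTG replicate 3 the lowest. Their log2 fold changes were -0.077 (SE 0.28) and -0.021 (SE 0.19), edgeR adjusting both p-values to 0.999. Omitting Pontin cTG replicate 2 gave -0.43 and -0.26, while omitting replicate 3 gave 0.21 and 0.13.

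**Figure D3:**
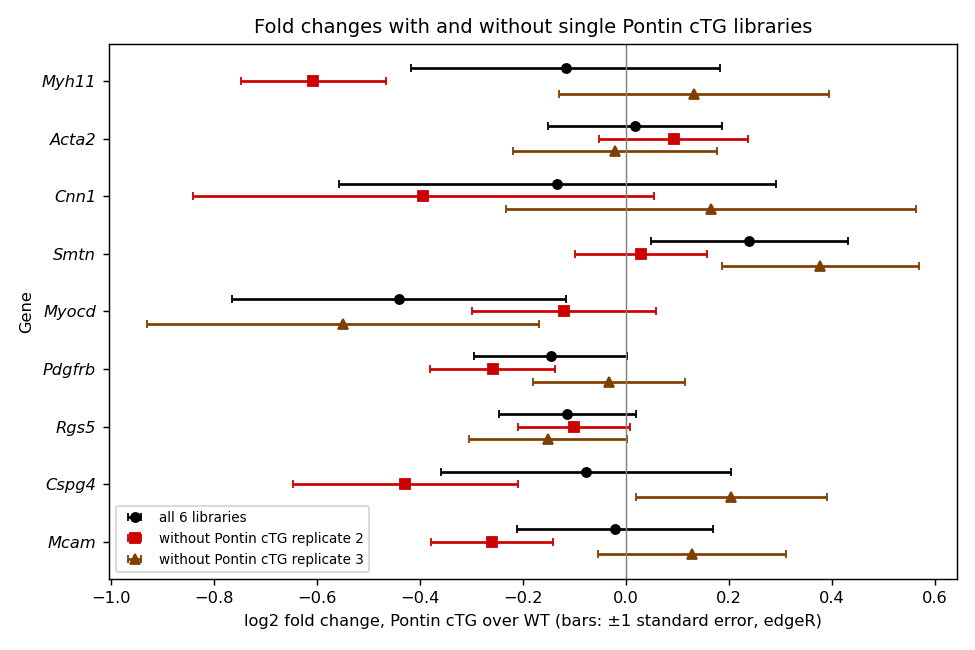
Log2 fold change of Pontin cTG over WT for the 9 genes tested, with 1 standard error to each side, from all libraries and without Pontin cTG replicate 2 or 3. *Myh11*, *Cnn1*, *Cspg4* and *Mcam* lie below 0 without replicate 2 and above 0 without replicate 3, and *Rgs5* hardly moves.

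In *Myh11*, *Smtn*, *Cspg4* and *Mcam*, Pontin cTG replicate 2 lay above every WT heart, and in all of these but *Smtn* replicate 3 lay below every WT heart. The median of the 9 genes was -0.26 without Pontin cTG replicate 2 and 0.13 without replicate 3. With Pontin cTG replicate 2 left out, 7 of 9 genes were below 0, as with all libraries, and 0 passed an adjusted p of 0.05 in edgeR. This was not particular to mural cell genes. In the same fit 9 of 10 endothelial, 6 of 6 macrophage and 6 of 10 cardiomyocyte markers were below 0. The median over all genes tested in it was -0.0049.

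Genes of the same cells beyond these 10 also gave no calls, as the edgeR fit called 0 of all 13888 genes tested. Of 18 further smooth muscle genes, 0 passed the test, 14 had log2 fold changes below 0 and 4 above it, and the median was -0.11. The median was -0.23 when Pontin cTG replicate 2 was left out and -0.0013 when replicate 3 was. The most abundant per kilobase was *Tpm1*, an α-tropomyosin that cardiomyocytes make in quantity. Its 3 Pontin cTG hearts lay above the 3 WT hearts with a log2 fold change of 0.11 (SE 0.12), where the groups of 4.7% of all genes tested separated in this direction. *Tpm2* (β-tropomyosin) had the smallest p of the list, with 392, 284 and 319.7 normalised counts in WT and 363, 526 and 393 in Pontin cTG hearts and a log2 fold change of 0.37 (SE 0.18, edgeR adjusted p = 0.999). Its high library was Pontin cTG replicate 2. *Filip1l* followed with -0.24 (SE 0.15).
Of 14 further pericyte genes, 0 passed the test, 8 were below 0 and 6 above it, with a median log2 fold change of -0.046. Leaving out Pontin cTG replicate 2 put 12 below 0 and 2 above it (median -0.11), and leaving out WT replicate 1 gave a median of 0.057. *Abcc9*, the sulphonylurea receptor subunit of the pericyte and heart muscle potassium channel, was the most abundant per kilobase and had the smallest p. It had 5107.5, 5499 and 4892 normalised counts in WT and 4772, 2789 and 4116 in Pontin cTG hearts. Every Pontin cTG heart lay under every WT heart, which was so for 3.63% of all genes tested. Its log2 fold change was -0.41 (SE 0.20, edgeR adjusted p = 0.999). *Kcnj8*, the pore of the same channel in pericytes, had a log2 fold change of -0.013 (SE 0.12). *Kcnj8* was named after its values were seen. *Anpep*, a surface peptidase of pericytes, had -0.42 (SE 0.21).

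The regulators upstream of the contractile genes also gave no calls, in a fit that called 0 of all 13888 genes. Of 12 regulators, 11 were tested, 6 were below 0, 5 above it and 0 passed, with a median of -0.051, which ran from -0.17 without WT replicate 2 to 0.022 without WT replicate 3. *Srf* was the most abundant per kilobase, with 1731, 1216 and 1804 normalised counts in WT and 1841, 1057.5 and 1687.5 in Pontin cTG hearts. As for *Myocd*, the low libraries were both replicates 2, and its log2 fold change was -0.051 (SE 0.23, edgeR adjusted p = 0.999). *Mef2c*, a muscle transcription factor, had the smallest p with a log2 fold change of -0.28 (SE 0.13) and every Pontin cTG heart under every WT heart, as in 3.63% of all genes tested. *Mrtfb*, a myocardin-related coactivator, had -0.28 (SE 0.14).
Among 14 ligands and receptors that act on mural cells, 0 passed, 10 were below 0 and 4 above it, with a median of -0.096 (-0.011 without WT replicate 1). *Tek*, the angiopoietin receptor of endothelial cells, was the most abundant per kilobase (log2 fold change -0.042, SE 0.15). Its ligands *Angpt1* and *Angpt2* had the smallest p, with -0.61 (SE 0.34) and -0.37 (SE 0.26). The value of *Angpt1* came with a wide spread, from 505.5 to 1041 normalised counts in WT and from 312 to 658 in Pontin cTG hearts. Neither *Pdgfb* at 0.10 (SE 0.18) nor *Agtr1a*, the Ang-II receptor, at -0.13 (SE 0.24) passed. These last genes were named after their values were seen.
In the actin family, the cardiac gene *Actc1* was the most abundant per kilobase, with 7575 CPM per kilobase against 80.8 for *Acta2*. *Actc1* had a log2 fold change of -0.11 (SE 0.11) and the enteric smooth muscle gene *Actg2*, with 11 to 25 reads per library, had -0.46 (SE 0.41). Of the 5 other actins, 2 were below 0 and 0 passed (median 0.0083). All 5 were below 0 when Pontin cTG replicate 2 was left out (median -0.12).

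Markers of other cell types also varied between these hearts. In every such list 0 genes passed an adjusted p of 0.05 in edgeR, as did 0 of all 13888 genes tested. All 10 endothelial markers were highest in Pontin cTG replicate 2, against 30.2% of all genes tested. Their summed normalised counts were 18706.5, 18640.1 and 18967 in WT and 18379, 23749.5 and 15985 in Pontin cTG hearts, and their median log2 fold change was 0.096, with 8 of 10 above 0. Without Pontin cTG replicate 2 it was -0.083, with 9 of 10 below 0. *Cdh5* (VE-cadherin) was the most abundant per kilobase, and *Robo4* and *Egfl7* had the smallest p, with log2 fold changes of 0.25 (SE 0.20) and 0.38 (SE 0.37). The mural cell genes highest in this heart were 4 of the 9 tested.
The 10 fibroblast markers summed to 19834, 29871 and 17095.5 in WT and 19802, 30089.9 and 16204 in Pontin cTG hearts, with *Dcn* (decorin) the most abundant per kilobase, so that both replicates 2 were high. Their median log2 fold change was 0.019 over the 9 genes tested, -0.24 when Pontin cTG replicate 2 was omitted and 0.25 when WT replicate 2 was. *Pdgfra* and *Tcf21* had the smallest p, with -0.41 (SE 0.21) and 0.22 (SE 0.26). *Postn* (periostin), a matrix protein of activated fibroblasts, was named after its values were seen. It had 1531, 2432 and 1046 normalised counts in WT and 1693, 4856 and 620.2 in Pontin cTG hearts. The 10 cardiomyocyte markers summed to between 752362 and 900008 in every library, with *Actc1* the most abundant per kilobase. Their median log2 fold change was -0.070, or 0.039 when Pontin cTG replicate 3 was left out. *Tnni3* and *Myl2* had the smallest p, with log2 fold changes of 0.30 (SE 0.14) and 0.24 (SE 0.12). *Nppa* (atrial natriuretic peptide), the stress gene of ventricular muscle, had 1550.5, 858 and 1842 in WT and 1205, 7716 and 360.4 in Pontin cTG hearts. Pontin cTG replicate 2 was thus also the highest library for *Postn* and *Nppa*, and replicate 3 the lowest.
Of the 6 macrophage markers 4 were below 0, with a median log2 fold change of -0.42. The median was -0.14 when WT replicate 2 was left out, and all 6 were below 0 when Pontin cTG replicate 2 was. They summed to 2820, 4559 and 2962 in WT and 3180, 3278.5 and 2131 in Pontin cTG hearts, with *C1qa* the most abundant per kilobase. *Mrc1* had a log2 fold change of -0.66 (SE 0.29) and *Csf1r* -0.39 (SE 0.18). Among the Schwann cell markers, which matter because *Cspg4* is also a gene of glia, *Mbp* had a log2 fold change of -0.41 (SE 0.37). The part of endothelial, fibroblast, macrophage and Schwann cell RNA in the mural cell values was not tested.
Defining markers of some other tissues were at or near 0. The atrial markers *Myl7*, *Sln* and *Bmp10* had at most 6 counts in a library, *Myl4* had 8 to 51, and *Nppa* led the 5 genes with a log2 fold change of 1.13 (SE 0.91). The median of *Nppa* and *Myl4*, the 2 atrial genes tested, turned from 0.97 to -0.19 when Pontin cTG replicate 2 was left out. The adipocyte marker *Adipoq* had at most 3 counts, with *Fabp4*, which endothelial cells share, leading that list at a log2 fold change of 0.22 (SE 0.20), or -0.032 when Pontin cTG replicate 2 was left out. Of the 5 mesothelial markers, *Krt19* was at 0 in every library, *Upk3b* and *Upk1b* had at most 2 counts, and *Wt1* led at 0.29 (SE 0.28), which was 0.083 when Pontin cTG replicate 1 was left out and 0.50 when replicate 3 was. The mitochondrial share of counts was between 23.8% and 26.7%.

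**Figure D4:**
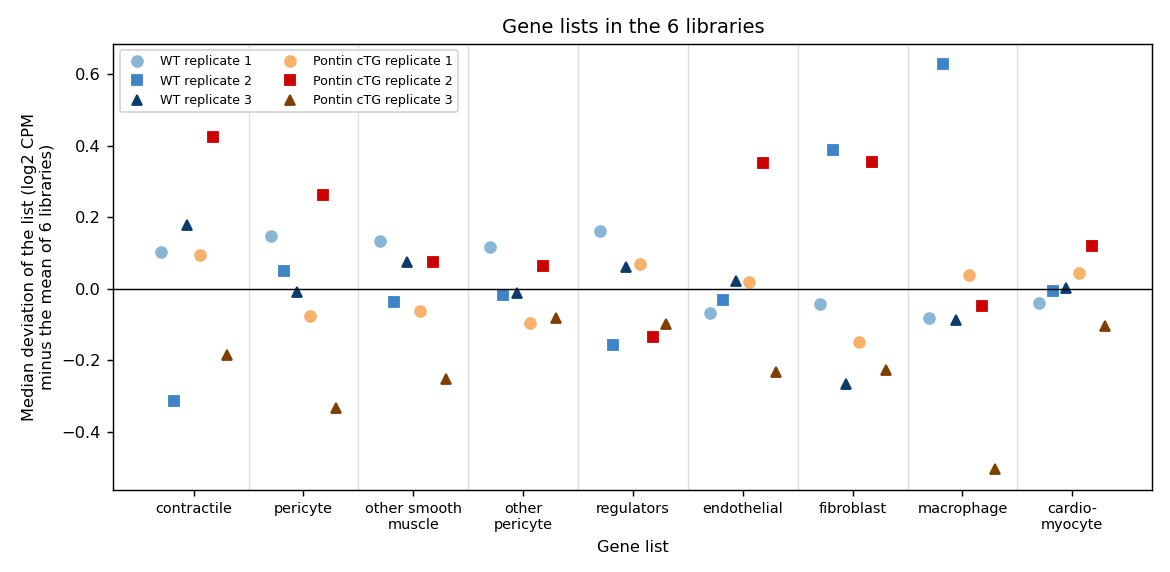
Median deviation of each gene list from the mean of the 6 libraries (log2 CPM), a point for each library. Pontin cTG replicate 2 is high for the contractile, pericyte, endothelial and fibroblast lists and Pontin cTG replicate 3 is low, while WT replicate 2 is high for fibroblast and macrophage genes and low for contractile genes (-0.31).

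Genes with the most similar pattern over the 6 libraries were looked for by the root mean square difference between a gene's deviations (log2 CPM minus its mean) and the mean deviations of the 9 mural cell genes. That mean profile was 0.15, -0.11 and 0.14 in WT hearts and 0.0047, 0.14 and -0.33 in Pontin cTG hearts. Of 13420 genes compared, the nearest were *Gm13841* (difference 0.034), *Polr1e* (0.041), *4930523C07Rik* (0.047), *Itga6* (0.048) and *Pcnx3* (0.049), where the median gene differed by 0.28. *Itga6*, a laminin receptor subunit, and *Polr1e*, a subunit of RNA polymerase I, are not markers of mural cells. None of the genes named here came from the lists of 18 further smooth muscle and 14 further pericyte genes. With so few of the 13420 genes named, this absence says nothing about those lists. The mean profile also averaged genes that went opposite ways. In Pontin cTG replicate 2 *Myocd* deviated by -1.13 and *Myh11* by 0.65.

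*Ruvbl1*, the mouse gene of Pontin, had 216, 221 and 217 normalised counts in WT and 249.9, 250 and 240 in Pontin cTG hearts, with no overlap between the groups (4.7% of all genes tested separated in this direction) and a log2 fold change of 0.18 (SE 0.12, edgeR adjusted p = 0.999). Reads from a human cDNA may fail to map to the mouse gene, which was not tested. These values are therefore not taken as a measure of the transgene.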

How the data were processed

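The counts deposited by the authors are whole numbers per Ensembl gene, not normalised. The study's methods name Trimmomatic, STAR, mm10 and Gencode M25, whereas the submitters' processing notes list fastp, HISAT2, featureCounts, DESeq2 and GRCm39. Of 52073 genes shared with GENCODE M21 (GRCm38), 1472 have the same coordinates, so the positions given are those of GENCODE M21, matched by Ensembl identifier. Gene lengths came from the deposited table, whose 6 sample columns matched the labels.

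Counts passing filterByExpr (minimum count 10) were TMM-scaled and fitted by genotype alone in edgeR 4.0.16 (R 4.3.3) with robust quasi-likelihood. P-values were adjusted by Benjamini-Hochberg over 13888 genes, with a threshold of 0.05. The SE is the log2 fold change over the square root of F. Deviations use log2 CPM (prior count 2). Exact permutation tests compared mean log2 normalised counts. The controls were littermates, but which mice share a litter is not given in the sources used here, nor is a batch, and p-values measure the spread between these mice. Libraries differed by more than sampling noise (chi-square per gene at least 5.62). On counts simulated for this comparison (13721 genes), edgeR called 48.5% of genes changed 2-fold and 89.4% of genes changed 4-fold.

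The mural cell genes and all lists were chosen with earlier results of these data known. The text names the 10 genes, from each further list the most abundant per kilobase and the 2 with the smallest p, the 5 nearest in pattern (mean log2 CPM of at least 0) and *Ruvbl1*. A Schwann cell marker that this rule names, and sums over its list, are not reported here. Alternatives were DESeq2 1.42.0, its size factors, unscaled library sizes, no low-count filter, a minimum of 10 counts in all libraries, only protein-coding genes, removal of mitochondrial genes, a replicate block, limma 3.58.1 (voom with sample quality weights), omission of each library and, added after seeing the data, omission of both replicates 2.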

Additional observations from a re-analysis of the deposited data

How the results depend on the processing

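The number of mural cell genes past an adjusted p of 0.05 was 0 under all 16 alternatives. For all genes tested this number was 1 in DESeq2, 3 without a filter on low counts, 3 in limma-voom, 6 with both replicates 2 left out, and 0 to 3 across the fits that left out a single library. The fit with the replicate block called 0 genes, with 499 at an unadjusted p under 0.05, and among the mural cell genes *Myocd* then had an unadjusted p of 0.00954 (log2 fold change -0.52). In limma-voom *Myh11* had an unadjusted p of 0.0116 (log2 fold change -0.46), and the median of the 9 genes was -0.24. Of all 13888 genes, 810 had an unadjusted limma-voom p under 0.05. Same-numbered hearts had correlations of deviations of 0.077, 0.43 and 0.19, and the numbers were not taken as pairs. Of the log2 fold changes of the 9 genes, 130 values under alternatives kept their direction and 14 turned. *Mcam* was 0.026 with library size alone. With both replicates 2 left out, *Acta2* was -0.045 and *Smtn* -0.064, so that all 9 genes were then below 0. Their median was -0.29, against 0.0021 over all genes tested in that fit. In that fit 3 of the 9 genes had an unadjusted edgeR p under 0.05, as had 572 of 13794 genes, and 0 of the 9 passed after adjustment. The 3 genes were *Myh11* at -0.53 (unadjusted p of 0.0024), *Mcam* at -0.30 (unadjusted p of 0.0255) and *Myocd* at -0.29 (unadjusted p of 0.0301). Across the fits without a single library the ranges were -0.12 to 0.12 for *Acta2*, -0.43 to 0.29 for *Cnn1*, -0.43 to 0.21 for *Cspg4*, -0.26 to 0.13 for *Mcam* and -0.61 to 0.13 for *Myh11*. The median over the 9 genes ran from -0.26 to 0.13, that of the other pericyte genes from -0.11 to 0.057, of the cardiomyocyte markers from -0.10 to 0.039 and of the atrial markers from -0.19 to 1.33. With both replicates 2 left out, the median was -0.25 for the other smooth muscle genes, -0.25 for the atrial markers and -0.061 for *Fabp4*, the adipocyte marker tested. The causes were not tested. *Tagln*, with 6 to 14 counts per library, entered the test only in some alternatives.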
